A study of Homo sapiens with 8 samples.

Results

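The 5S rRNA gene array and a tRNA gene cluster, both on the long arm of chromosome 1, were examined in p53 chromatin immunoprecipitation sequencing (ChIP-seq) of 293T cells. Members were all deposited peaks that overlapped chromosome 1 from 228700000 to 228800000 (the 5S window) or from 161360000 to 161640000 (the tRNA window) on hg19. These were 156 peaks in the 5S window and 133 in the tRNA window, together 289 of the 97582 peaks in the 4 lists. 293T cells derive from human embryonic kidney and express the large T antigen of a simian virus, to which p53 binds. Cells received doxorubicin at 0.5 µg/ml (Dox), a topoisomerase poison, or, as the control, 20 µL of phosphate-buffered saline (PBS), in both cases for 24 h. Each condition had 2 ChIP libraries made with a p53 antibody. They are called Dox 1 and PBS 1 for replicate 1, from passage 3, and Dox 2 and PBS 2 for replicate 2, from passage 5. The 4 input samples were not analysed here. Replicates differ by passage, so every p reflects library spread that includes passage.

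5S rRNA is the small ribosomal RNA that RNA polymerase III makes from tandem gene copies, each with its promoter inside the gene, where TFIIIA recruits TFIIIC and then TFIIIB. As part of a particle with the ribosomal proteins RPL5 and RPL11, 5S rRNA binds MDM2, the main ubiquitin ligase of p53. tRNA genes also carry internal promoters, the A box and the B box, to which TFIIIC binds directly, and p53 is known as a repressor of polymerase III transcription. RefSeq (GRCh38.p14) lists 17 genes for 5S rRNA on chromosome 1, RNA5S1 to RNA5S17. The first 16 follow each other with no other gene between them, and RHOU and DUSP5P1 lie before the last. In the cluster it lists a run of 23 neighbouring tRNA genes from TRG-TCC4-1 to TRL-CAG1-5, in which glycine (TCC), aspartate (GTC) and leucine (CAG) genes occur 5 times each and glutamate (CTC) and glycine (GCC) genes 4 times each. That build differs from hg19, so genes are named by order only and no peak was assigned to a single gene. Peaks are described as called, and whether p53 occupied these copies was not tested. Both stretches are made of near-identical copies, and the sources used here do not say how reads that match several copies were placed. A value at 1 copy may therefore include reads from another.

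Peaks had been called separately per library, 46658 of them in Dox 1, 16642 in Dox 2, 11304 in PBS 1 and 22978 in PBS 2. Sequencing depth is not given in them. Fold enrichment is the authors' own ratio at the summit, the highest point of a peak, over the caller's local background. It describes and ranks peaks within 1 list only.

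The 5S window held a dense and strong group of peaks in every library. There were 34 peaks in Dox 1, 42 in Dox 2, 37 in PBS 1 and 43 in PBS 2. The lists differed in length far more than these counts, and the longest list had the fewest peaks in the window. On chromosome 1, 100 kb bins with any peak held a median of 2 peaks in both Dox libraries and in PBS 2, and of 1 in PBS 1. Leaving out the bin of the array itself, 0 bins reached the count of the window in Dox 2, PBS 1 and PBS 2, and 2 did in Dox 1, the fuller with 39 peaks.

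Peaks with a q-value of at most 0.05 made up most of the 5S window. They were 22 of 34 peaks in Dox 1, or 64.7% (95% Wilson interval 47.9 to 78.5), against 3.65% of its whole list. In Dox 2 they were 29 of 42, or 69.0% (54.0 to 80.9), against 4.84%. In PBS 1 they were 20 of 37, or 54.1% (38.4 to 69.0), against 2.56%, and in PBS 2 they were 31 of 43, or 72.1% (57.3 to 83.3), against 5.84%. The intervals cover counting error only and treat neighbouring peaks as independent, which they are not. Each library thus had a share far above that of its own list, and the 4 intervals overlap one another.

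Ranked by p within each list, the best peak of the 5S window stood at rank 14 in Dox 1, 22 in Dox 2, 48 in PBS 1 and 42 in PBS 2. Among the 100 peaks with the smallest p, the window supplied 12, 11, 9 and 8 in the same order. The median fold enrichment in the window was 5.75, 4.48, 4.76 and 5.31, against 2.47, 2.79, 2.64 and 2.85 over the whole lists. The median peak of the window lay at the percentile 99.0, 96.2, 97.4 and 97.8 of fold enrichment in its list. The mean over libraries was 97.6, above 50 in 4 of 4 libraries (two-sided exact sign-flip permutation p = 0.125, the smallest that 4 libraries allow). By design this test cannot reach 0.05.

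**Figure D1:**
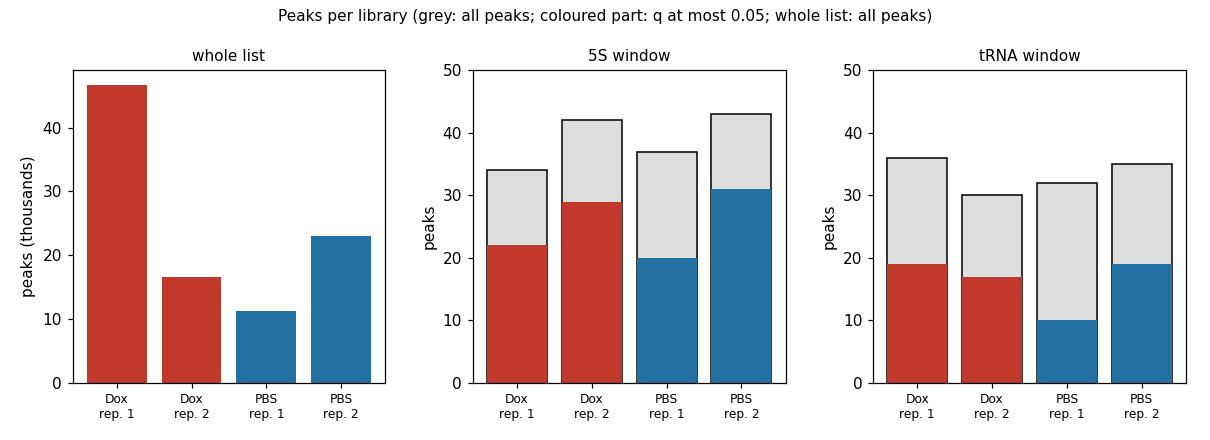
Peaks per library in the whole list (left, axis in units of 1000 peaks), in the 5S window (middle) and in the tRNA window (right); in the windows the outlined bar counts all peaks and its coloured part those with q of at most 0.05, and there are 2 libraries per condition (red Dox, blue PBS). The list lengths run from 11304 to 46658 peaks, whereas the windows hold 34 to 43 and 30 to 36.

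Almost all of this signal came from 38.7 kb within the 5S window. The peaks with q of at most 0.05 in any library ran from 228744171 to 228782832. This block held 29, 40, 36 and 39 peaks in Dox 1 and Dox 2 and PBS 1 and PBS 2, and its peaks covered 81.6%, 60.7%, 58.5% and 60.2% of it. Outside the block the window had 5, 2, 1 and 4 peaks, with fold enrichments between 1.98 and 3.63. The bounds were set by the peaks with q of at most 0.05, so no peak outside can meet that limit. The contrast between inside and outside is therefore a description. At the far edge, Dox 1 had a last peak from 228799906 to 228800375 at 1.98-fold, and PBS 1 had its first peak beyond the window from 228800141 at 2.13-fold.

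Summits in the 5S window recurred at regular distances close to the length of the repeat unit, about 2.2 kb. Among distances between all pairs of the 156 summits, counted in bins of 100 bp from 1000 to 4000 bp, the fullest bin was 2200 to 2300 bp with 208 pairs, against a median of 41.5 pairs per bin. Folding all summits at each period from 1500 to 3000 bp gave the largest concentration at 2203 bp, but with a resultant length of 0.166, where 1 means that all summits fall on 1 place of the unit. With the scan widened to 1000 to 4000 bp the best period was 1116 bp. Single libraries gave periods of 2209 bp in Dox 1, 1540 in Dox 2, 1707 in PBS 1 and 2193 in PBS 2. The folded period alone was therefore a poor measure, and the distances themselves were followed from site to site.

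**Figure D2:**
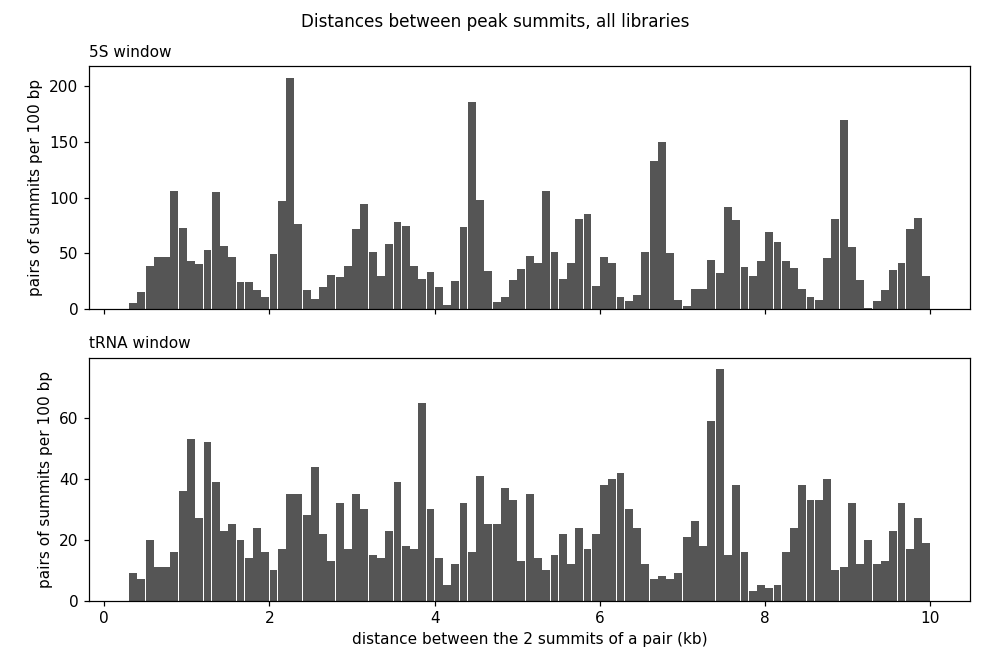
Number of pairs of peak summits (y axis, per 100 bp bin) by the distance between the 2 summits in kb (x axis, from 0.3 to 10 kb), over the summits of all 4 libraries, for the 5S window (top) and the tRNA window (bottom). In the 5S window the fullest bin is 2200 to 2300 bp with 208 pairs and further maxima follow near its multiples, and in the tRNA window the fullest bin from 5 to 9 kb is 7400 to 7500 bp with 76 pairs.

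When summits of all libraries no more than 200 bp apart were joined into summit sites, the window had 55 of them. Of these, 37 fell into 2 interleaved series with steps near the length of the repeat unit. The first series had 19 sites over 40.0 kb, from 228744671 to 228784648, with steps of 2221 ± 91.3 bp (SD, 18 steps) and a range of 2002 to 2357 bp. The second had 18 sites from 228746035 to 228784008, with steps of 2234 ± 78.8 bp (SD, 17 steps) and a range of 2044 to 2390 bp. A site of the first series was followed by one of the second after a median of 1344.5 bp (1176 to 1404), and a site of the second by one of the first after 885.5 bp (640 to 1040). The distances between the 2 series were thus unequal in the 2 directions. Sites of the second series did not all recur: 228777281 had a summit in 1 library, and 228766084, 228779528 and 228784008 in 2. The joining of sites into series, with a tolerance of 250 bp around the unit length, was chosen after the positions had been seen, so it is a description without a test.

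Sites of the first series lay under peaks along most of the array in every library. Of its 19 sites, 18 lay under a peak in all 4 libraries, and the last, at 228784648, had a peak in Dox 2 and PBS 2 only. The sites came from summits of these same libraries, and peaks covered 58.5% to 81.6% of the block, so such cover is partly built in. A summit in each library was found at 16 sites. In Dox 1, 228751310 and 228782646 lay under broad peaks without a summit of their own. Summits of the different libraries at 1 site lay a median of 55.5 bp apart from lowest to highest (27 to 192 bp, 18 sites with summits in at least 3 libraries). In Dox 1, 16 of the sites had a summit of their own, all 16 with q of at most 0.05. In Dox 2 these numbers were 19 and 17, in PBS 1 18 and 15, and in PBS 2 19 and 18.

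Fold enrichment along the first series ran from 3.96 to 12.8 with a median of 8.58 in Dox 1, and from 2.85 to 8.77 with a median of 5.83 in Dox 2. In PBS 1 it ran from 2.08 to 7.49 with a median of 5.63, and in PBS 2 from 2.51 to 9.60 with a median of 6.28. The sites were therefore unequal within each library.

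**Figure D3:**
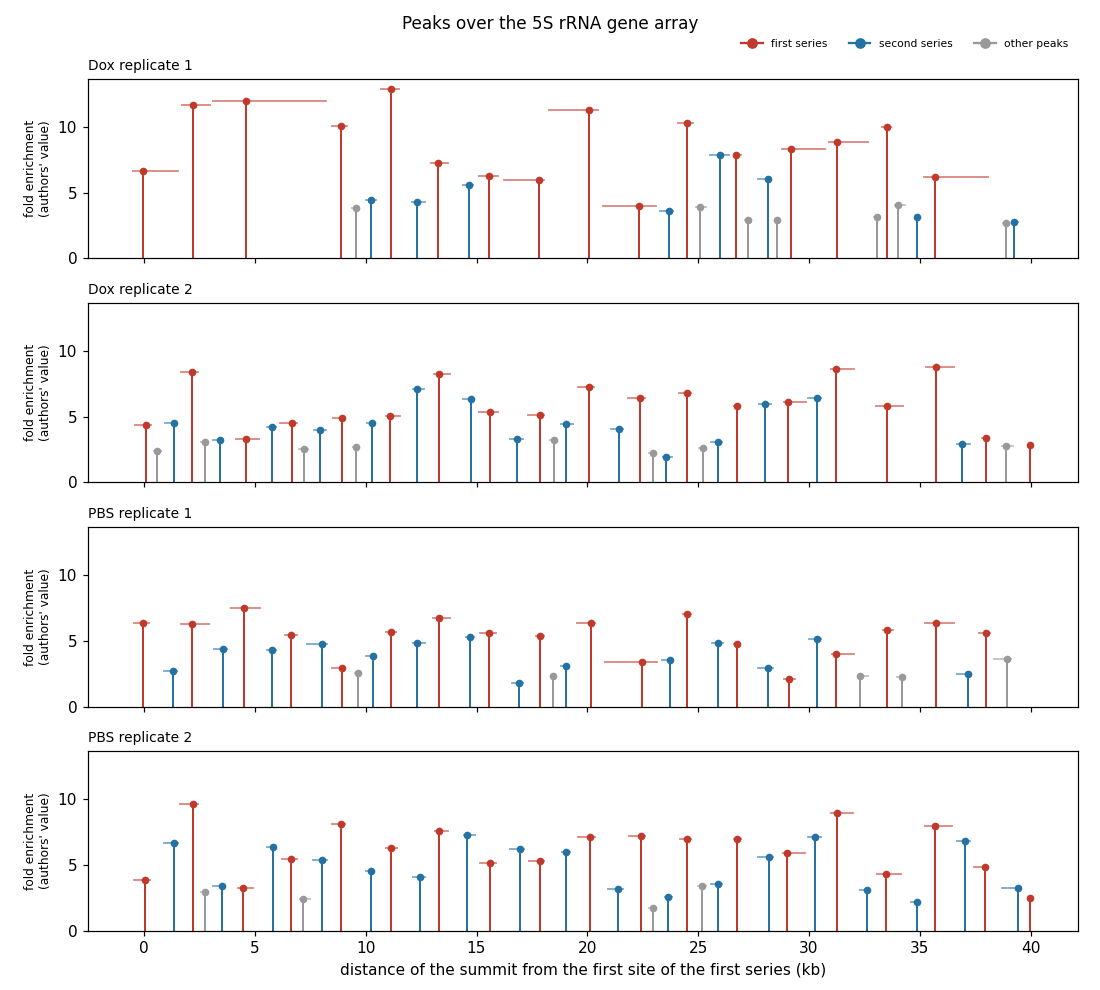
Fold enrichment (y axis, the authors' value within each list) of each peak over the 5S array by the distance of its summit from the first site of the first series in kb (x axis), with 1 panel per library; horizontal strokes show the width of each peak. Red peaks belong to the first series, blue to the second and grey to neither. Of the 19 sites of the first series, 18 lie under a peak in all 4 libraries and 16 have a summit in each.

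Single sites of the first series differed in fold enrichment, and reads from several copies may have entered each value. At 228746851, the second site of the first series, fold enrichment was 11.7 and 8.41 in Dox 1 and Dox 2 and 6.23 and 9.60 in PBS 1 and PBS 2. At 228755804 it was 12.8, 5.08, 5.65 and 6.28 in the same order, and this peak, from 228755346 to 228756171, was the best of the window in Dox 1. At 228780376 the values were 6.16, 8.77, 6.35 and 7.93, and this site gave the best rank of the window in Dox 2 and in PBS 1. The 2 Dox libraries therefore led with different sites, and no site was strongest in all 4 lists.

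The lowest site was not the same in each list. At 228773758 fold enrichment was 8.32, 6.10, 2.08 and 5.89 in Dox 1 and Dox 2 and PBS 1 and PBS 2, and the value of PBS 1, with a −log10 q of 0, was the lowest of the series in that list. At 228767069 it was 3.96, 6.38, 3.40 and 7.21, and that of Dox 1 was the lowest in its list. At 228749208 it was 12, 3.31, 7.49 and 3.24, the highest of the series in PBS 1, while in Dox 2 and in PBS 2 only the last site of the series had a lower value. These sites were picked after their values were seen, and folds of different lists are not compared.

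The order of the sites was shared between the 2 libraries of passage 5. Over the 19 sites with a summit in both, Spearman's rho of fold enrichment between Dox 2 and PBS 2 was 0.8 and Pearson's r was 0.842. Between Dox 1 and PBS 1, both of passage 3, rho was 0.324 over 16 sites. Between the 2 Dox libraries rho was -0.138 over 16 sites, and between the 2 PBS libraries it was -0.193 over 18 sites. The remaining pairs gave 0.0265 (Dox 1 with PBS 2, 16 sites) and 0.0815 (Dox 2 with PBS 1, 18 sites). Sites of 1 library share its reads and its control, neighbouring units share sequence, and the sources used here do not say whether libraries shared an input, so these values are a description without a p-value.

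**Figure D4:**
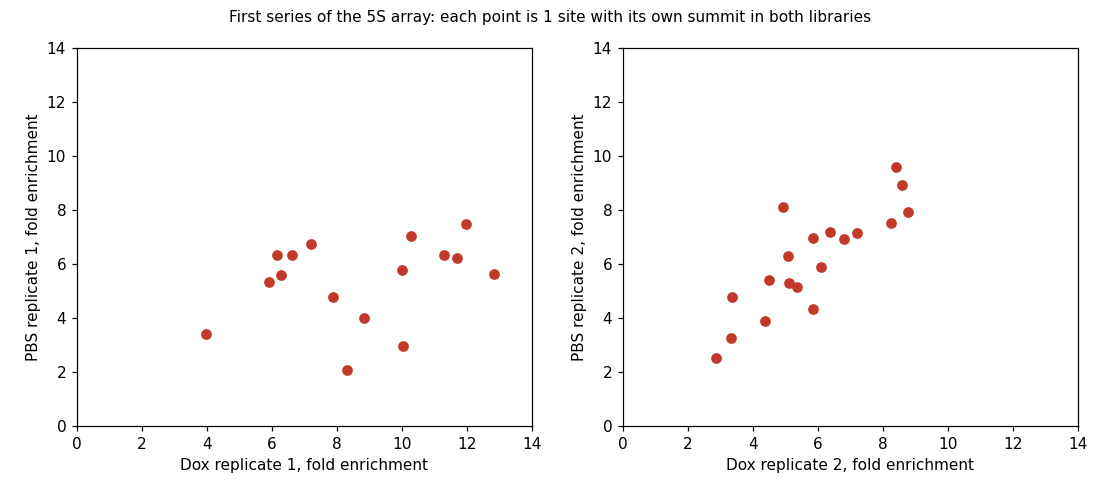
Fold enrichment of the sites of the first series in a Dox library (x axis) against the PBS library of the same replicate number (y axis), for replicate 1 on the left (16 sites) and replicate 2 on the right (19 sites). Points on the right follow one order (rho 0.8) and those on the left are scattered (rho 0.324).

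The second series was weaker than the first in each list. Its median fold enrichment was 4.36 and 4.24 in Dox 1 and Dox 2 and 4.06 and 4.96 in PBS 1 and PBS 2, each below the median of the first series in the same list. Its sites with q of at most 0.05 numbered 6 of 8 with a summit of their own in Dox 1, 12 of 15 in Dox 2, 5 of 14 in PBS 1 and 13 of 18 in PBS 2. Of the 18 sites, 15 lay under a peak in all 4 libraries. In Dox 1 all 18 lay under a peak, though only 8 had a summit of their own. At 228759370, one of 6 with a summit in each library, fold enrichment was 5.59, 6.37, 5.29 and 7.24 in Dox 1 and Dox 2 and PBS 1 and PBS 2. The gaps lay toward the far end of the array. The site at 228777281 had no peak in Dox 2, and 228779528 and 228784008 had a peak in Dox 1 and PBS 2 and none in the other 2 libraries.

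Peaks of the 5S window were wide. The median width was 573 bp in Dox 1, 550.5 in Dox 2, 536 in PBS 1 and 584 in PBS 2, against 282, 288, 281 and 281 over the whole lists. The window exceeded the list by 278 ± 22.8 bp (SD, n = 4 libraries), in 4 of 4 (two-sided exact sign-flip permutation p = 0.125, the smallest possible). With only peaks of q at most 0.05 on both sides the excess was 89.8 bp, so the size of the excess depends on that limit.

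Dox 1 differed from the others by its broadest peaks. Peaks of at least 1000 bp numbered 9 of 34 in Dox 1, 5 of 42 in Dox 2, 5 of 37 in PBS 1 and 3 of 43 in PBS 2. Over the whole lists such peaks made up 2.30%, 1.77%, 1.75% and 1.95%. The widest, 5113 bp from 228747765 to 228752877 in Dox 1, ran across 2 sites of the first series and 3 of the second. Of the 9 broad peaks of that library 8 covered at least 2 sites of the series, against 0 of 5, 1 of 5 and 0 of 3 in Dox 2, PBS 1 and PBS 2. Since a peak has 1 summit, these broad peaks leave sites without a summit of their own. Dox 1 had the fewest peaks and the most covered sequence, 33061 bp against 23392 to 24917 bp in the other 3. Whether it differed by treatment, passage or library cannot be told apart.

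Recurrence was high in the 5S window. Peaks that shared at least 1 bp were merged into sites over the 4 lists, which gave 33 sites in the window, and 23 of them had a peak in all 4 libraries, against 6.01% of all 63890 sites. A further 2 were in 3 libraries, 4 in 2 and 4 in 1. Peaks covered 58.5% to 81.6% of the block, so overlap between lists there is partly built in. No site of the window was in both Dox and no PBS library, against 3.11% of all sites, and none in both PBS and no Dox library, against 0.928%. The first by rank, from 228755346 to 228756212, had enrichments of 12.8, 5.08, 5.65 and 6.28 in Dox 1 and Dox 2 and PBS 1 and PBS 2. It was followed by sites from 228779850 to 228782832, 228747765 to 228752912, 228757621 to 228758468 and 228775570 to 228777406. The site from 228757621 had 7.20, 8.24, 6.75 and 7.53 in the same order. Without Dox 1, whose broad peaks join neighbouring sites, 33 sites were in the 3 other libraries. No share over all sites is given for that count. With all peaks and summits chained within 200 bp, 22 of 55 summit sites were in all 4 libraries. That was 40.0%, against 3.91% of all 70070 summit sites.

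Sites 6 to 15 by the same order lay, by their start, at 228762935, 228746313, 228777607, 228753142, 228768782, 228773460, 228744171, 228765372, 228759800 and 228756767. Their highest fold enrichment lay between 3.96 and 11.7 in Dox 1, between 4.50 and 8.41 in Dox 2, between 2.96 and 7.03 in PBS 1 and between 4.10 and 9.60 in PBS 2. The order put sites in all 4 libraries first, so these 15 are in all 4 by the rule.

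The authors also matched peaks between the replicates of each condition. Their tables hold the −log10 p of the paired peaks, and peaks of this window already ranked high by p. The values below are therefore not separate support. Of the 25 Dox pairs in the 5S window, 24 had an irreproducible discovery rate (IDR) of at most 0.05, against 27.5% of all Dox pairs. Of the 34 PBS pairs, 27 did, against 15% of all PBS pairs. The median IDR in the window was 6.3e-06 for Dox and 0.00149 for PBS, and it was 0.225 and 0.337 over all pairs.

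Peak number in the 5S window did not separate Dox from PBS. Dox libraries averaged 38 ± 5.66 peaks and PBS libraries 40 ± 4.24 (SD, n = 2 each), a difference of -2 (two-sided exact permutation p = 0.667, the smallest possible being 0.333). Within passage 3 Dox minus PBS was -3 peaks and within passage 5 it was -1. The difference became 2 without Dox 1 and 1 without PBS 2, and was -6 without Dox 2 and -5 without PBS 1. Peaks with q of at most 0.05 averaged 25.5 in both conditions, 25.5 ± 4.95 and 25.5 ± 7.78. The groups overlap in both counts.

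The tRNA window was less filled as a whole and had a single dense stretch. It held 36 and 30 peaks in Dox 1 and Dox 2 and 32 and 35 in PBS 1 and PBS 2. Peaks with q of at most 0.05 were 19 of 36 in Dox 1 (52.8%, Wilson interval 37.0 to 68.0, beside 3.65% of the list) and 17 of 30 in Dox 2 (56.7%, 39.2 to 72.6, beside 4.84%). In PBS 1 they were 10 of 32 (31.2%, 18.0 to 48.6, beside 2.56%) and in PBS 2 they were 19 of 35 (54.3%, 38.2 to 69.5, beside 5.84%). PBS 1, the shortest list, had the lowest share, and its interval overlaps the other 3.

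All of these stronger peaks lay in 30.6 kb, from 161411408 to 161442047. The stretch held 22, 24, 23 and 23 peaks in Dox 1 and Dox 2 and PBS 1 and PBS 2, nearly equal numbers, and their widths summed to 70.0%, 58.2%, 51.9% and 58.1% of its length. The remaining 14, 6, 9 and 12 peaks of the window were scattered over the other parts of its 280 kb, with fold enrichments between 1.88 and 4.35 and with no −log10 q above 1.05. Median fold enrichment was 5.62, 4.06, 4.27 and 5.10 inside the stretch and 2.39, 2.38, 2.46 and 2.65 outside it. The bounds of the stretch were set by the peaks with q of at most 0.05, so peaks outside miss that limit by the rule. The contrast in q and fold enrichment is therefore a description.

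The best peak of the tRNA window stood at rank 108, 97, 94 and 57 by p in Dox 1 and Dox 2 and PBS 1 and PBS 2. The window supplied 0, 1, 1 and 4 of the 100 peaks with the smallest p, fewer than the 5S window in each list. Its median peak lay at the percentile 95, 87.5, 90.7 and 87.1 of fold enrichment, on average 90.1 and above 50 in 4 of 4 libraries (two-sided exact sign-flip permutation p = 0.125, the smallest possible). Among 280 kb bins of chromosome 1 that share nothing with the window, 22 had at least as many peaks in Dox 1, 3 in each of Dox 2 and PBS 2, and 0 in PBS 1. Counting only q of at most 0.05, 1 such bin reached the window in each of Dox 2 and PBS 1, and 0 did in Dox 1 and PBS 2.

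Summits in the tRNA window recurred over a longer unit. Among pair distances from 5000 to 9000 bp the fullest bin was 7400 to 7500 bp with 76 pairs, against a median of 17.5 per bin. Folding at periods from 5000 to 9000 bp was largest at 7355 bp with a resultant length of 0.193, and single libraries gave 7850, 5038, 7382 and 5067 bp. The scan of this window and the counts of pair distances in both windows were added after the positions had been seen.

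Summit sites found in at least 2 libraries formed 4 series of 5, 5, 4 and 4 sites when joined within 350 bp of 7450 bp, a unit and a tolerance chosen after the positions had been seen. These took up 18 of the 60 summit sites of the window. Of the 42 others, 29 had a summit in 1 library and 4 in all 4. The first series ran from 161410445, just before the dense stretch, to 161440052 with steps of 7372 to 7449 bp. The second ran from 161411646 to 161441360 with steps of 7245 to 7593 bp. The third ran from 161413022 to 161435503 with steps of 7152 to 7684 bp, and the fourth from 161416836 to 161439056 with steps of 7365 to 7434 bp. Of these 18 sites, 17 lay under a peak in all 4 libraries, and at 161410445 the peak of PBS 1 lay beside the site. The sites came from summits of these same libraries, and peak widths summed to 51.9% to 70.0% of the dense stretch. Such cover is therefore partly built in.

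**Figure D5:**
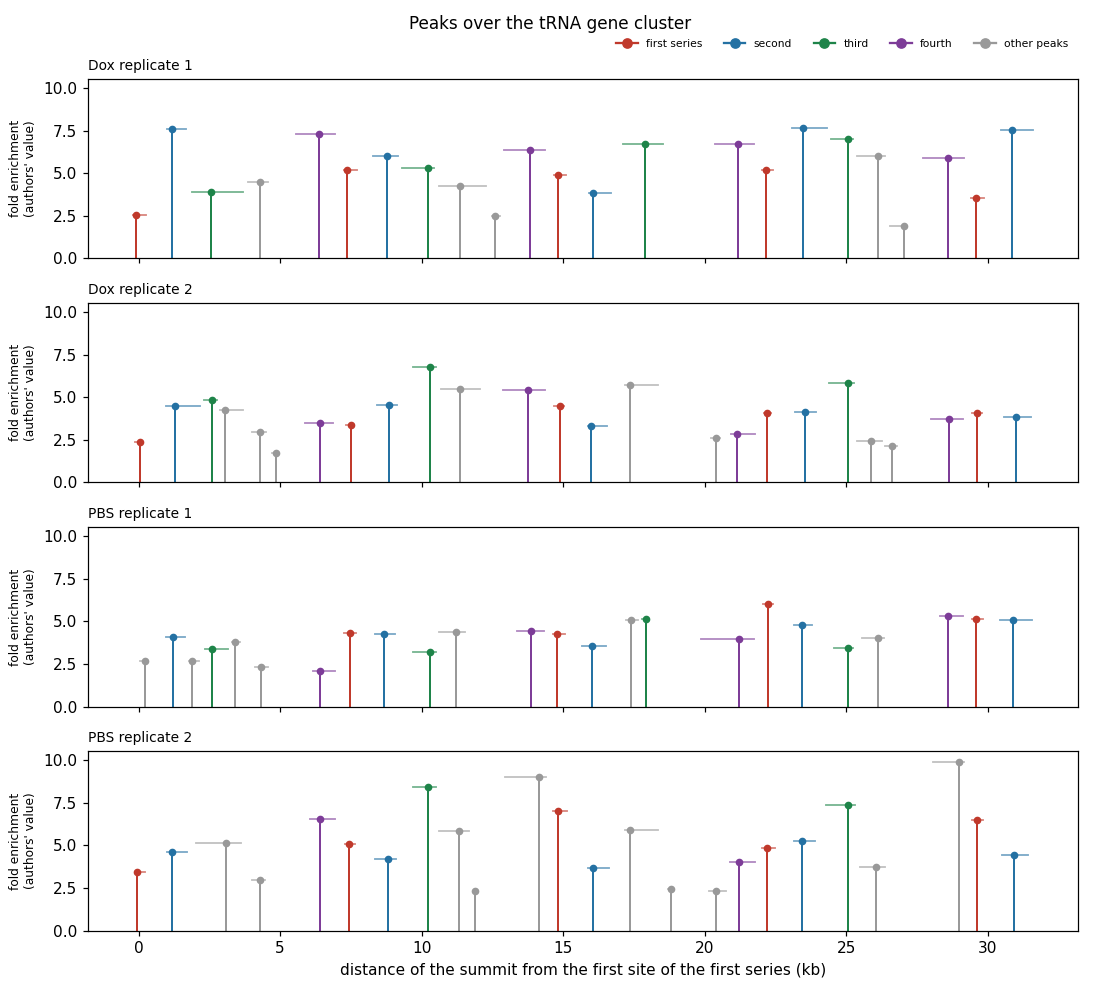
Fold enrichment (y axis, the authors' value within each list) of each peak over the dense stretch of the tRNA window by the distance of its summit from the first site of the first series in kb (x axis), with 1 panel per library; horizontal strokes show peak widths. Colours mark the 4 series of sites about 7.4 kb apart, with 5, 5, 4 and 4 sites, and grey marks peaks in none of them. The first site of the first series lies just before the stretch.

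Within a series of the tRNA cluster the sites were similar in some lists and uneven in others. In the second series, fold enrichment over the 5 sites ran from 3.85 to 7.64 in Dox 1, from 3.35 to 4.56 in Dox 2, from 3.54 to 5.06 in PBS 1 and from 3.68 to 5.23 in PBS 2. The site at 161426484 was the lowest in each library, with 3.85, 3.35, 3.54 and 3.68. The site at 161411646 had 7.63, 4.50, 4.10 and 4.59 in the same order.

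In the series that starts at 161413022, the sites at 161420706 and 161435503 had a summit in each library. Fold enrichment at the former was 5.32, 6.80, 3.21 and 8.42 in Dox 1 and Dox 2 and PBS 1 and PBS 2. At the latter it was 7.01, 5.81, 3.44 and 7.38. Within its own list, the former was the highest of this series in Dox 2 and the lowest in PBS 1, and the latter was the highest in Dox 1.

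In the fourth series the site at 161416836 had 7.32, 3.51, 2.09 and 6.54, and that at 161431635 had 6.74, 2.86, 3.97 and 4.01 in the same order. In PBS 2 the largest enrichment of the window, 9.93, belonged to a peak from 161438530 to 161439608. That peak covers the last site of this series and has its summit at 161439416, beside the other libraries' summits. The first series, the narrowest, had median widths of 437, 291, 418 and 386 bp.

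Peaks of the tRNA window were wide as well. The median width was 606, 581.5, 458.5 and 489 bp in Dox 1 and Dox 2 and PBS 1 and PBS 2, an excess over the lists of 251 ± 69.2 bp (SD, n = 4 libraries), in 4 of 4 (two-sided exact sign-flip permutation p = 0.125, the smallest possible). Peaks of at least 1000 bp numbered 10 of 36, 6 of 30, 2 of 32 and 6 of 35, against 2.30%, 1.77%, 1.75% and 1.95% of the whole lists. In this window none of the broad peaks covered 2 sites of the series.

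Merging over the 4 lists gave 46 sites in the tRNA window. Of these 20 had a peak in all 4 libraries, against 6.01% of all sites, 2 in 3, 6 in 2 and 18 in 1. Peak widths summed to 51.9% to 70.0% of the dense stretch, so overlap between lists there is partly built in. The first by rank was from 161438155 to 161439608, with enrichments of 5.91, 3.70, 5.34 and 9.93 in Dox 1 and Dox 2 and PBS 1 and PBS 2. It was followed by 161423327 to 161424837 with 6.39, 5.44, 4.41 and 9.0, and by 161419738 to 161420935 with 5.32, 6.80, 3.21 and 8.42. Sites 4 to 15 lay, by their start, at 161433548, 161415995, 161432460, 161430322, 161440895, 161411408, 161425082, 161439862, 161421055, 161427556, 161418741 and 161417693, all within the dense stretch; the rule put sites in all 4 libraries first. With only peaks of q at most 0.05, 6 sites were in all 4 libraries, and no share over all sites is given for that count. With all peaks and summits chained within 200 bp, 18 of 60 summit sites were in all 4 libraries. That was 30.0%, against 3.91% of all 70070 summit sites.

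Outside the stretch few sites recurred. The site from 161359958 to 161360332, at the edge of the window, was in all 4 libraries at 3.66, 2.30, 2.91 and 2.73. So was the site from 161410244 to 161410701, just before the stretch, at 2.57, 2.35, 2.66 and 3.44 in Dox 1, Dox 2, PBS 1 and PBS 2. It holds the first site of the first series. Dox 1, PBS 1 and PBS 2 shared a site from 161368746 to 161369822 at 4.35, 3.11 and 2.33, and a site from 161535887 to 161536588 was in the libraries other than Dox 1 at 2.34, 2.08 and 2.36. Of the 46 sites, 0 were in both Dox and no PBS library, against 3.11% of all sites. In both PBS and no Dox library there was 1 of 46, or 2.17%, against 0.928% of all sites. It ran from 161582346 to 161582926, with 2.18 and 2.74 and a −log10 q of 0 in both. In RefSeq the Fc gamma receptor genes FCGR2A and FCGR3A, the heat shock genes HSPA6 and HSPA7 and further tRNA genes follow the run, and peaks were not assigned to them here.

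Matched pairs were again more reproducible than those of the whole tables, which is not separate from the ranks by p. Of 21 Dox pairs in the tRNA window 20 had an IDR of at most 0.05, beside 27.5% of all Dox pairs, and of 25 PBS pairs 17 did, beside 15% of all PBS pairs.

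Peak number in the tRNA window did not separate the conditions either. Dox libraries averaged 33 ± 4.24 peaks and PBS libraries 33.5 ± 2.12 (SD, n = 2 each), a difference of -0.5 (two-sided exact permutation p = 1, the smallest possible being 0.333). Within passage 3 Dox had 4 more peaks than PBS, and within passage 5 the difference was -5. For peaks with q of at most 0.05 the means were 18 ± 1.41 and 14.5 ± 6.36, a difference of 3.5 (two-sided exact permutation p = 1, n = 2 each). With 11304 top peaks taken from each list, the window kept 23 and 23 peaks in the Dox libraries and 32 and 27 in the PBS libraries, a difference of -6.5 (two-sided exact permutation p = 0.333, n = 2 each, the smallest possible). The PBS 1 list has 11304 peaks in all, so it was not shortened. It kept all of its 32 peaks, among them 9 outside the dense stretch with a −log10 q of 0. The groups do not overlap in that count, which therefore rests partly on weak peaks of an uncut list. They overlap in all peaks and in peaks with q of at most 0.05, and in the latter the difference has the opposite sign. Median widths also did not overlap, 606 and 581.5 bp for Dox against 458.5 and 489 bp for PBS, and this difference was not tested.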

How the data were processed

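p53 ChIP-seq of 293T cells was analysed in 4 libraries, 2 per condition. The submitters' processing notes name BWA, MACS2 and hg19; no source used here gives versions or filters. The authors deposited 1 peak list per library, with the fold enrichment of each summit as a ratio and p and q as −log10, and the peak names state a calling p under 0.05. The authors also deposited a table per condition of matched peak pairs with their IDR, which acts as a q-value for irreproducibility. The local IDR in these tables, a fraction per the file headers, served no result.

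Starts are given 1-based and summits as deposited. Peaks were merged by at least 1 bp, or summits chained within 200 bp. Site positions of series are medians of summits. Named sites were those in 3 or 4 libraries, by number of libraries and then best rank of p, up to 15 per window. Tests were exact permutations over libraries, and the functions for merging, for the period and for these tests were checked on simulated data. Depth is unknown, so its effect on precision could not be given. The replicate numbers pair by passage, per the labels. Members, windows and rules were chosen with earlier results of these data known. No hg19 annotation or genome was used, so grouping by gene and motif searches were not run. Computation used scipy 1.17.1, numpy 2.4.6 and pandas 2.3.3 under Python 3.11.15, and plots matplotlib 3.10.9. Alternatives were peaks with q of at most 0.05, equal list lengths, other merging rules, the replicate block and leaving out each library.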

Additional observations from a re-analysis of the deposited data

Results flagged for a closer look

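Dox minus PBS had opposite signs at the 2 passages for several counts, and this difference between passages was not tested, since each rests on 1 library per condition. In the tRNA window, peaks differed by 4 within replicate number 1 (passage 3) and by -5 within number 2 (passage 5), and peaks with q of at most 0.05 by 9 and -2. The covered length there differed by 8228 bp and -2641 bp. In the 5S window, peaks with q of at most 0.05 differed by 2 and -2, and the covered length by 9669 bp and -747 bp.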

How the results depend on the processing

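Of 64 alternative values, 53 were counted as unchanged. Tested values among them kept their direction. Counts with no test were counted so within a set ratio of the value reported, and periods within the SD over single libraries. These limits were wide. In place of 23 5S sites in all libraries, 33 without Dox 1 and 16 with q of at most 0.05 were counted so. A second 5S series of 13 sites in place of 18 was counted so too. The 5S peak difference of 0 with q of at most 0.05, which has no direction, was also counted so. All alternatives of the median fold percentile were counted so without a comparison, at 88.4 to 98.5. Some of the 53 still changed in size: the tRNA peak difference became -6.5 at equal list length, and the 5S width excess went from 278 to 89.8 bp with q of at most 0.05. No test used here could reach 0.05, so no value could change its side of that limit, and signs of peak numbers carry no call. In the 5S window the difference of -2 peaks ran from -6 to 2 without single libraries, reversed without Dox 1 (2) and without PBS 2 (1), and stayed -2 with the replicate block (exact p = 0.5). In the tRNA window the difference of -0.5 ran from -3.5 to 2.5, reversed without Dox 2 (2.5), without PBS 2 (1) and with q of at most 0.05 (3.5), and stayed -0.5 with the replicate block (exact p = 1). The median distance between neighbouring site summits was 1208 bp in the 5S window, 1265 for sites in 2 or more libraries and 1444 for q of at most 0.05. In the tRNA window it was 1833, 2814 and 1353 bp, and the cause was not tested. With q of at most 0.05, sites in all 4 libraries fell from 20 to 6 in the tRNA window and from 23 to 16 in the 5S window. The 5S period moved from 2203 to 1116 bp with the wider scan and was 2201 to 2256 bp without single libraries. With a tolerance of 200 bp, chosen after seeing the data, the 2 series of the 5S window had 18 and 13 sites in place of 19 and 18. Read depth is unknown and sets which weak peaks were called. The cause of the changes in this section was not tested.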
